A study of Mus musculus with 6 samples.

Results

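Wild-type-only regions are stretches of the mouse genome where an H3K4me3 peak was listed for wild-type STHdhQ7 cells and for none of the mutant STHdhQ111 conditions. Overlapping peaks of the 6 deposited lists were merged into 61168 regions. A region was kept when it held a peak of the wild-type list with a score of at least 29 and no peak of the other 5 lists. This left 4018 regions, 6.57% of all merged regions and 10.5% of the 38392 wild-type peaks. Each of the 4018 held a single wild-type peak, so its score and width are those of that peak. The regions were thus chosen by the wild-type score and by their absence from the mutant-line lists, which are described here without a test.

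STHdh cells are immortalised mouse striatal progenitors. Q7SST is the STHdhQ7 line, with wild-type Huntingtin, given vehicle. Q111SST is the STHdhQ111 line, which carries knocked-in Huntingtin with an expanded run of glutamine codons, given vehicle. The other 4 lists came from STHdhQ111 cells given cyproheptadine, loxapine, DKI or meclizine at 10 uM. In all 6 conditions the cells were kept without serum for 24 hours. Each genotype was represented by a single cell line, so genotype and line cannot be told apart. There was 1 list per condition, and whether replicate cultures were pooled is not stated. A region missing from a list can lack the mark or can lie under the cutoff used to call peaks in that library, and these cannot be told apart.

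H3K4me3, trimethylation of lysine 4 of histone H3, is laid down mainly at the starts of genes and is strongest over promoters rich in CpG dinucleotides. Weaker and narrower peaks are also found at enhancers, in introns and between genes. The mark goes with promoter activity or readiness and is not itself a measure of RNA.

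Across the series the lists held 30758 to 45564 peaks, with scores from 10 upward. Read totals were not used, so the depth behind a score is unknown. Of 16 striatal progenitor markers, 14 had a wild-type peak within 1 kb of a start and Sox2 and Isl1 did not. Of 9 markers of mature striatal neurons, 7 had such a peak, while the dopamine receptor genes Drd1 and Drd2 were unmarked in all 6 lists. Wild-type peaks also lay at 6 of 7 mesenchyme markers, 4 of 7 astrocyte markers, 3 of 6 melanocyte markers, 2 of 8 oligodendrocyte markers, 2 of 7 microglial markers and 2 of 6 endothelial markers. Of all coding genes, 59.7% had a wild-type peak at a start, so counts near that share do not single out a cell type. The part of any other cell type in the wild-type-only regions was not tested.

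Several kinds of region recur in the results, and the central 300 bases of an example of each are printed from the + strand of GRCm38. They touch no annotated exon. Capitals mark each CG dinucleotide and each match to TGANTCA, the AP-1 motif as searched here, with any base in the middle. The first, chr15:10999724-11000023, lies upstream of Slc45a2 within the region of highest score. The second, chr11:79495163-79495462, lies in an intron of Nf1 within the region of highest score away from starts. The third, chr7:62428245-62428544, lies between genes near Mkrn3 within a strong but narrow region. The fourth, chr2:146062392-146062691, lies in an intron of Cfap61 and holds the AP-1 letters. The fifth, chr8:89015600-89015899, lies near Sall1 within a cluster of wild-type-only regions.
Slc45a2 upstream: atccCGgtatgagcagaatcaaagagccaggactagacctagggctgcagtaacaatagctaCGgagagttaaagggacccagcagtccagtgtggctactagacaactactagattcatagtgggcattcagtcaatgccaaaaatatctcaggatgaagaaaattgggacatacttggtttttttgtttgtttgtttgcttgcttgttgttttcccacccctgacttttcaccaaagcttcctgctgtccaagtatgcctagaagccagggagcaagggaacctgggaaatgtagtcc
Nf1 intron: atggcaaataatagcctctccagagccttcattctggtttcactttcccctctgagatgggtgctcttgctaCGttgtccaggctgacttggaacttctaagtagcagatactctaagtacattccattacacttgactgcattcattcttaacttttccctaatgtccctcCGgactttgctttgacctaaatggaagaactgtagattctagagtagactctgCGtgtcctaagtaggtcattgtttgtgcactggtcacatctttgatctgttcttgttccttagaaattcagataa
Mkrn3 neighbourhood: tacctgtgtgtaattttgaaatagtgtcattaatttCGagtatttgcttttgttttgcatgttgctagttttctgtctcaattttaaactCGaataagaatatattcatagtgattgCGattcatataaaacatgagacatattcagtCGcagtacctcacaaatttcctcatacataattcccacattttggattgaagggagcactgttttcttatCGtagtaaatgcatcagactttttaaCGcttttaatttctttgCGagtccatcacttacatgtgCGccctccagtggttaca
Cfap61 intron: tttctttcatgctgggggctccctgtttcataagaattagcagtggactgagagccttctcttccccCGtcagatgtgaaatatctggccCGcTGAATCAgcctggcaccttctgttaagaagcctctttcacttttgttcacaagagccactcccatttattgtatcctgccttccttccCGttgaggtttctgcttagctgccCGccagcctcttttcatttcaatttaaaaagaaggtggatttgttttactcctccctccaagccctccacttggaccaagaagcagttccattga
Sall1 neighbourhood: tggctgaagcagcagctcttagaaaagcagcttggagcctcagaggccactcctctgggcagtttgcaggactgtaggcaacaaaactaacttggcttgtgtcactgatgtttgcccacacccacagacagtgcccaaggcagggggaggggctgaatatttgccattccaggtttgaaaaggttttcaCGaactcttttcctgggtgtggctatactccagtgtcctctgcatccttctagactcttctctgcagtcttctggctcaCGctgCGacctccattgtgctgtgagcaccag
The stretches differ in base composition. The Mkrn3 stretch was 34.3% G or C yet held 8 CG dinucleotides, whereas the Sall1 stretch was 52.7% G or C and held 3. The Slc45a2 stretch held 2 CG dinucleotides. The Cfap61 stretch was the only one of these with a match to the AP-1 letters. Its match, TGAATCA, is not TGACTCA or its complement, a narrower form that was also searched.

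The scores of the wild-type-only regions were low within their list. Their median was 41, with quartiles of 34 and 55 and a highest value of 263. The 24998 wild-type peaks of score 29 or more that overlapped a mutant-line peak, called shared regions from here on, had a median of 77. At the edge of the rule, 236 regions had a score of 29 and 192 otherwise eligible regions had a score of 28. Median widths on either side of that edge were 527 and 519 bp, and 17.4% and 17.7% of the regions lay within 1 kb of a transcription start. Regions just inside the minimum therefore looked like those just outside it.

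Most wild-type-only regions lay away from promoters. Of the 4018, 763, or 18.99% (95% interval 17.8 to 20.2), were within 1 kb of an annotated transcription start, against 54.1% of the shared regions. Introns held 37.1% and exons away from starts 6.07%, and 37.9% lay between genes. The median distance to the nearest start was 10297 bp, against 364 bp for shared regions. Of the wild-type-only regions, 50.5% were more than 10 kb from any start and 4.70% more than 100 kb. Of the 763 at a start, 583 had a protein-coding start within 1 kb. A further 108 had no such start but had one of a long noncoding RNA.

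The difference in location grew with the score. Among regions scoring 29 to 39, 15.9% of the wild-type-only and 19.5% of the shared regions lay near a start, a difference of -3.58 percentage points (-5.63 to -1.45). Among those scoring 100 or more, the shares were 28.4% and 82.2%, a difference of -53.8 points (-59.9 to -46.8). The share between genes was nearly flat across wild-type-only regions, from 37.1% in the lowest score band to 37.7% in the highest. Among shared regions it fell from 33.3% to 9.67%. Thus a high score went with a promoter in the shared regions far more often than in the wild-type-only ones.

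**Figure D1:**
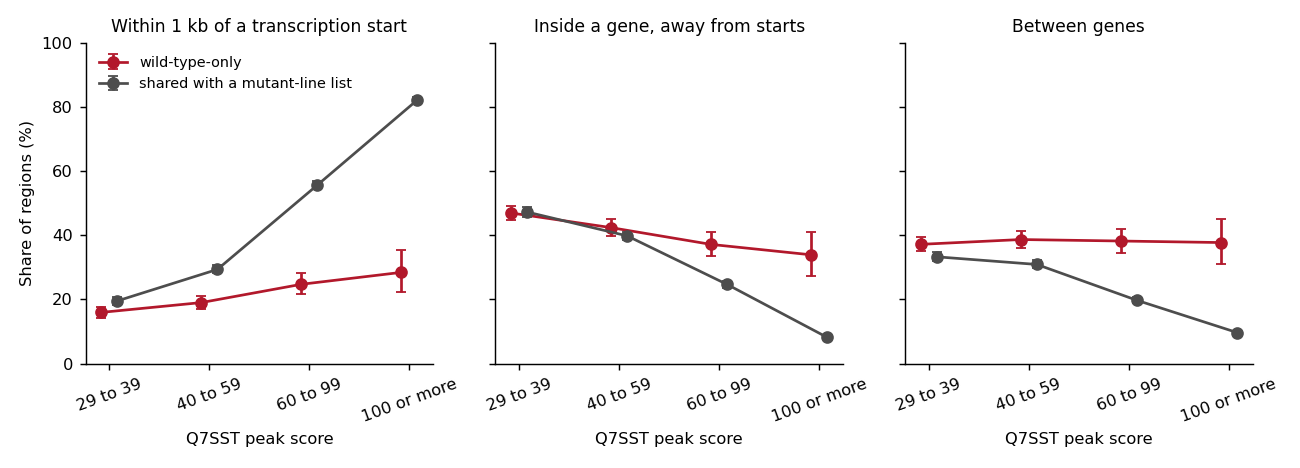
Share of regions (%, y axis) in each kind of place by Q7SST peak score (x axis), for wild-type-only regions (red) and regions shared with a mutant-line list (grey). Points are shares and bars 95% Wilson intervals. At scores of 100 or more, 28.4% of wild-type-only and 82.2% of shared regions lay within 1 kb of a start, while the lowest band differed by 3.58 points.

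A set from the mutant line, chosen by an unlike rule, gives a further comparison. A total of 3679 regions were in all 5 mutant-line lists and not in Q7SST, and are called mutant-line-only regions. Their values are those of the Q111SST peak, with no score minimum. Of these, 13.9% lay near a start, 5.07 points fewer than among the wild-type-only regions (3.42 to 6.72). Introns held 44.4% of them and 37.1% of the wild-type-only regions, a difference of -7.30 points for the latter (-9.49 to -5.11). Both sets were mainly distal, and the median distance to a start was 10652 bp in the mutant-line-only set.

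Wild-type-only regions were narrow. Their median width was 621 bp (608 to 638), against 1173 bp for shared regions and 841 bp for mutant-line-only regions. The gap held at matched scores. In the band from 29 to 39 the medians were 542 and 712 bp, and at 100 or more they were 855 and 1589 bp. Only 51 wild-type-only regions exceeded 2000 bp. Within the set, regions near a start were widest, with a median of 759 bp, and those between genes narrowest, at 560 bp.

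Very narrow regions were more frequent than among shared regions in every score band. Under 400 bp were 28.9% of the wild-type-only and 8.01% of the shared regions, and the differences by band were 14.8, 15.3, 14.4 and 13.7 points from lowest to highest. Of the 183 wild-type-only regions scoring 100 or more, 29 were under 400 bp, or 15.8% (11.3 to 21.8). The share among shared regions of that score was 2.10%, and the interval of the difference was 9.16 to 19.7 points. These 29 included the Slc45a2 region of 317 bp, the Tlr1 region of 288 bp and the Mkrn3 region of 303 bp. Of the 29, 4 lay near a start, and 1 was more than 50% repeat sequence by the soft-masking of the genome.

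**Figure D2:**
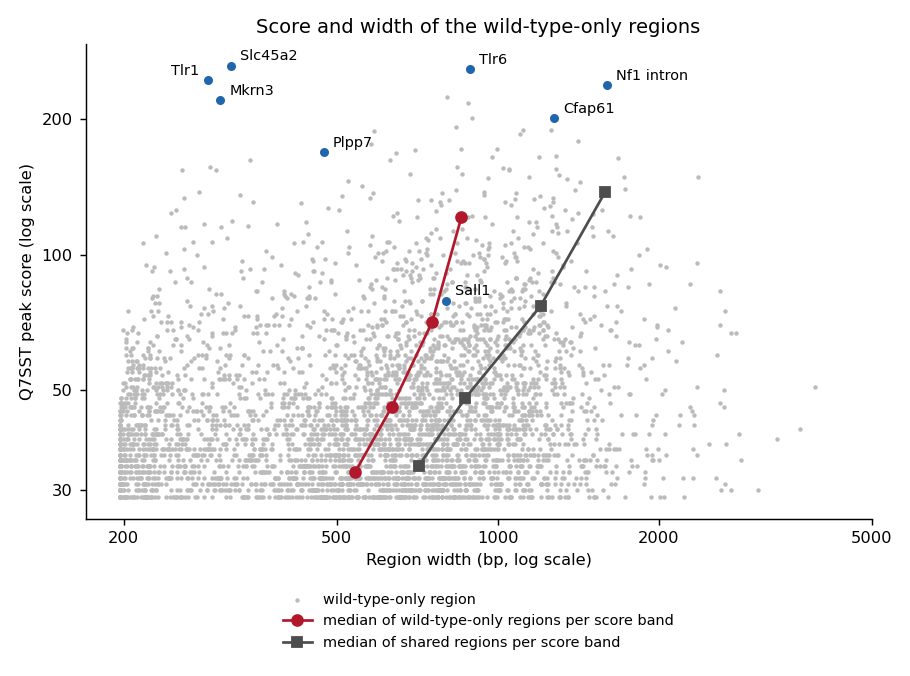
Q7SST peak score (y axis, log scale) against width in bp (x axis, log scale) for the 4018 wild-type-only regions (grey points), with the medians per score band for them (red) and for shared regions (dark squares). Blue points are named regions. The wild-type-only medians run from 542 to 855 bp and the shared medians from 712 to 1589 bp, and Slc45a2, Tlr1 and Mkrn3 sit at the top left.

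At gene starts, 589 of 21992 protein-coding genes (2.68%) had a wild-type-only region within 1 kb. For 381 of them no start was marked in any mutant-line list. Another 168 were marked in all 5 mutant-line lists through a different peak, so that the wild-type-only region was an extra one at an already marked gene. The remaining 40 were marked in 1 to 4 lists.

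The highest score, 263, belonged to the region 689 bp from the start of Slc45a2, a transporter of pigment cells (chr15:10999716-11000032). The nearest mutant-line peak was 16987 bp away. Of 6 melanocyte markers, Slc45a2 alone had a wild-type-only region at a start, and the pigment enzyme genes Tyr and Dct had no wild-type peak at a start. Tyrp1, a further pigment enzyme gene, scored 25 in Q7SST, under the minimum of 29, and was unmarked in the 5 mutant-line lists. Mlana went the other way, with no mark in Q7SST and a score of 13 in Q111SST, and Mitf was marked in all 6 lists.

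Tlr6 and Tlr1, receptors of innate immunity that recognise bacterial lipopeptides, came next with scores of 258 and 244. The Tlr6 region (chr5:64959214-64960102) and the Tlr1 region (chr5:64933316-64933603) both covered a start, and neither gene had a mark at a start in any mutant-line list. They stood in a cluster of 4 wild-type-only regions whose other scores were 38 and 36. Ticam2, which carries Toll-like receptor signals into the cell, also had one, with a score of 78. Of 22 Toll-like receptors and their partners, 3 (13.6%) had a wild-type-only region at a start, against the 2.68% of all coding genes. This list was chosen with earlier results of these data known, and Tlr1 and Tlr6 lie in the same cluster. The share is therefore a description and no test.

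Other strong promoter regions belonged to unrelated genes. Zfp605, a zinc finger gene, had a score of 172, and a mutant-line peak lay 1208 bp away. Pcdhgb2, a clustered protocadherin of cell adhesion, had 171. Plpp7, of the lipid phosphatase family, had 169. Ano3, a membrane protein of the anoctamin family, had 164, and no mutant-line peak lay within 238279 bp. Khk, which starts fructose breakdown, had 155, and Calca, the gene for calcitonin and a related neuropeptide, had 146. None of these had a mutant-line mark at a start. In contrast, Tmcc1, Ak5 and the Zfp617 and Zfp882 pair had wild-type-only scores of 165, 139 and 189 but also carried Q111SST peaks at other starts, and for Zfp617 and Ak5 these scored 196 and 58.

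The 8 strongest regions away from starts lay in introns, over an exon or between genes. The Nf1 region (chr11:79494514-79496112) scored 238 and lay 7972 bp from Omg, a myelin glycoprotein gene nested within Nf1. A region over an exon of Ankub1 (chr3:57667021-57667825) scored 224. The Mkrn3 region scored 220. The nearest coding gene to a region of score 217 on chromosome 10 (chr10:38553755-38554633) was Rfpl4b, 267146 bp away. The Cfap61 intron region (chr2:146061905-146063178) scored 201, and Cfap61 is a gene of cilia. Regions nearest to Rasl11a, Zzef1 and Kank1 scored 201, 192 and 189. These regions were 10563 bp (Zzef1) to 63205 bp (Cfap61) from a mutant-line peak except for Mkrn3 at 7751 bp and Ankub1 at 2844 bp.

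Of 16 striatal progenitor markers, 1 had a wild-type-only region at a start, and of 9 markers of mature striatal neurons, 2 had one, against 2.68% of all coding genes. Bcl11b, a transcription factor of striatal projection neurons, had a score of 56. Tac1, the precursor of substance P, had 36, and Adora2a, the adenosine receptor of striatal output neurons, had 31. All were listed with no peak at a start in the 5 mutant-line lists, and the nearest such peaks were 50267, 22800 and 16174 bp away. The median score of the wild-type-only regions was 41, so Bcl11b was above it and Tac1 and Adora2a below. Other markers went the other way. Sox2, a factor of neural progenitors, was unmarked in Q7SST and scored 67 in Q111SST, and Foxp1 and Meis2 scored 72 and 29 in Q7SST against 118 and 51 in Q111SST, although scores of different lists need not share a scale. Progenitor markers marked at a start numbered 14 of 16 in Q7SST and 10 to 12 in the mutant-line lists. The mature neuron markers marked at a start numbered 7 of 9 in Q7SST, 5 in Q111SST and meclizine, 4 in loxapine, and 2 in cyproheptadine and DKI. The cyproheptadine and DKI lists were also the smallest, with 33721 and 30758 peaks. Against the 59.7% of all coding genes marked in Q7SST, 55.2% were marked with cyproheptadine and 55.6% with DKI. Adora2a and Tac1 were chosen by the rule, and they alone separate the Q7SST and Q111SST counts of mature neuron markers. Bcl11b, also chosen by the rule, likewise adds to the progenitor count of Q7SST. These counts therefore partly restate how the regions were chosen.

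Gene families differed in how often a start held a wild-type-only region. Protocadherins, cell adhesion molecules of neurons whose starts lie close together in clusters, had one at 8 of 68 genes (11.8%). They included Pcdhga2 at 91, Pcdhgb5 at 88 and Pcdhb22 at 69. Potassium channels, which set membrane excitability, had one at 8 of 92 (8.70%), led by Kcnf1 at 90 and Kcnn2 at 60. Homeobox and T-box factors, which pattern the embryo, had one at 9 of 112 (8.04%). These included Six3, Hoxa2, Nkx3-2, Pax2, Pax8 and Tbx6. Extracellular matrix genes had one at 10 of 134 (7.46%), including Itgb6 at 54, Col4a6 at 51 and a region of score 30 near the starts of both Col4a3 and Col4a4. All 4 lists lay above the 2.68% of all coding genes, as counts of small lists chosen with earlier results known.

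The other lists had smaller shares. Glutamate and GABA receptors had 3 of 43 (6.98%; Gabrb1, Grik1 and Grik5). The Wnt pathway had 3 of 45 (6.67%; Sfrp2, Wnt11 and Wnt4), and axon guidance genes 3 of 68 (4.41%; Epha3, Plxnc1 and Sema4d). Solute carriers had 16 of 342 (4.68%), with Slc2a3, a glucose transporter, at 115 and Slc7a4 at 101. Of the genes named here, Wnt11 and Slc2a3 were also marked at a start in all 5 mutant-line lists. Sfrp2, Wnt4, Plxnc1 and Sema4d were marked in some of those lists. Zinc finger genes had 13 of 458 (2.84%), close to the background. Olfactory and vomeronasal receptors had 2 of 1420. Antigen presentation genes of the MHC had 0 of 28 and interferon response genes 0 of 66.

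Inside gene bodies, 1687 coding genes (7.67%) held a wild-type-only region, of which 102 held 3 or more. These were long genes, with a median length of 99.1 kb against 17.3 kb for all coding genes. The part of gene length in this count was not tested. Gm20388, a read-through model of 4435 kb that spans many genes, held 13. Sox6, a transcription factor of cell fate, held 9. Nfib, Stox2 and Tcf4, which also encode transcription factors or related DNA-binding proteins, held 7 each. Sox6 had a wild-type score of 94 at its strongest start and a Q111SST score of 76, while Nfib had 52 and 135. The 52 of Nfib is the score of its wild-type-only region at a start, 57309 bp from any mutant-line peak. The 135 thus belongs to another start of Nfib. Stox2 had 141 in Q7SST and no mark in Q111SST, cyproheptadine or DKI. Tcf4 had 121 and 155.

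The host genes' own promoters were then compared where all 6 lists marked them and no wild-type-only region lay at a start. Each promoter was ranked, as a percentile of its own list, by the best score near a start. For 10762 genes with none inside, the median difference of Q7SST from Q111SST was -1.25 percentile points. For 643 genes with 1 inside it was -0.92, and for 103 genes with 2 it was -0.83. For 42 genes with 3 or more it was 1.73, with quartiles of -5.67 and 14.8. Q7SST was higher in 26 of these 42, or 61.9%, with a lower bound of 46.8%. It was higher in 39.9% (38.98 to 40.83) of the genes with none inside, and in 41.9% of the long genes among those. The 42 were chosen on Q7SST peaks in the same list, and no test was made.

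The regions were scattered, with some local groups. Of the 4018, 1093 (27.2%, 25.8 to 28.6) had another within 50 kb. They formed 383 pairs, 70 triples and 27 clusters of 4 or more. The largest held 6. Of the mutant-line-only regions, 29.7% had another of their kind within 50 kb. In 12 of the 27 larger clusters no mutant-line list had a peak between the first and last region.

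Sall1, a transcription factor of kidney and limb development, had such a cluster. Its 5 regions scored 61, 79, 61, 32 and 42 and spanned 40.2 kb (chr8:89006168-89046404). Within a window of 200 kb around it, Q7SST had 7 peaks and the 5 mutant-line lists had 0. The nearest mutant-line peak was 212817 bp from the cluster's first region. Six3, a homeobox factor of the forebrain and eye, had 4 regions scoring 53, 38, 43 and 87 over 50.0 kb, with no mutant-line peak among them.

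Adamts12, which encodes a secreted metalloprotease, held 6 regions, all intronic, over 93.9 kb (chr15:11104987-11198861). Their scores were 66, 59, 62, 30, 39 and 41. Within the 200 kb drawn around the gene each mutant-line list had 3 peaks, and these lay on the side of the gene's start. Of the 7 regions in Stox2, 5 formed a cluster and scored 57, 107, 179, 132 and 30, the last at a start, over 89.7 kb (chr8:47324296-47414030). Loxapine and meclizine had 1 peak each in that span and the other 3 mutant-line lists had none. The regions outside the cluster scored 31 and 124, the latter at another start.

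**Figure D3:**
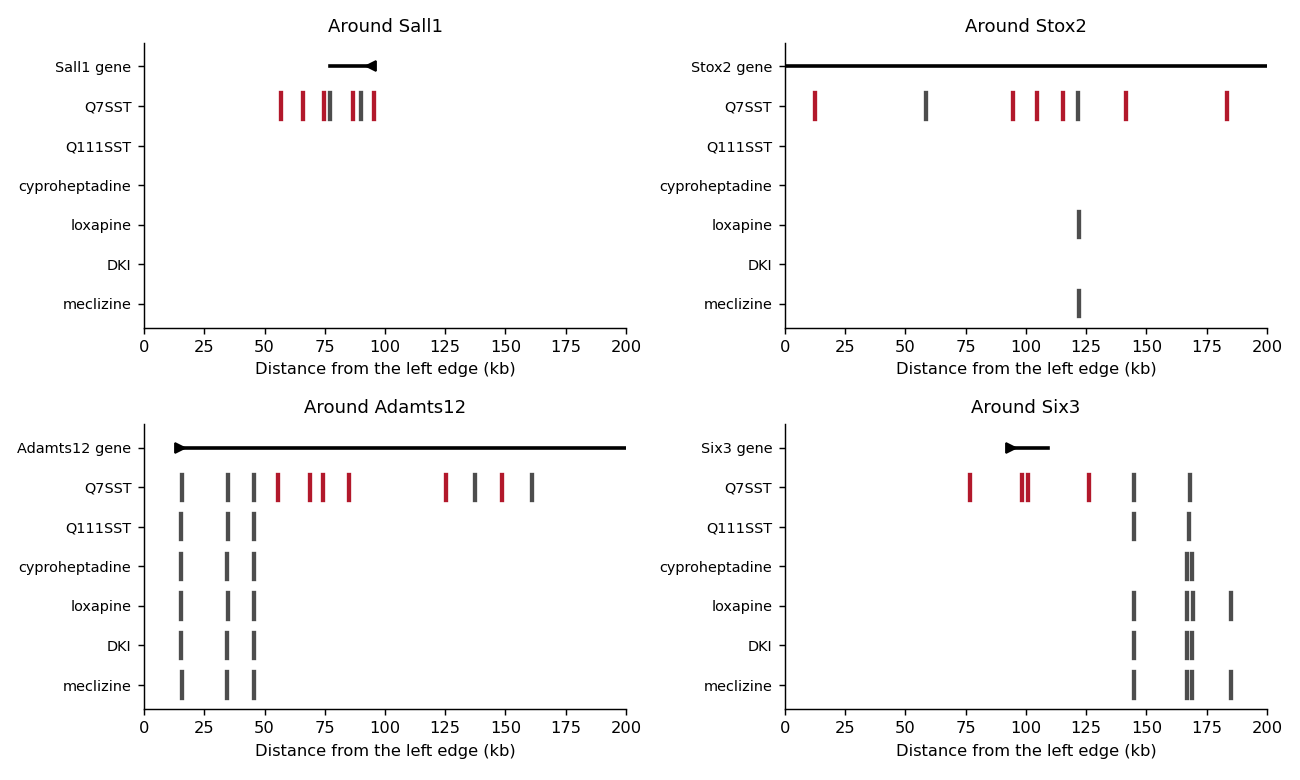
Peaks of the 6 lists (rows) around Sall1, Stox2, Adamts12 and Six3, drawn as bars of fixed width at their centres by distance in kb from the left edge of a 200 kb window (x axis). Red bars are wild-type-only regions, grey bars all other peaks, and the black line the gene with an arrowhead at its start where this falls in the window. Around Sall1 there are 7 Q7SST peaks, 5 of them wild-type-only, and 0 mutant-line peaks.

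Further clusters differed in their setting. Ndp, which encodes the secreted signal norrin, had 6 low regions on chromosome X, scoring 29 to 46 over 141.3 kb, with 1 peak of each mutant-line list in the span. Ndn, Magel2 and Mkrn3, imprinted genes expressed from the paternal copy, had 5 regions over 125.2 kb (chr7:62303379-62428546). The Mkrn3 region scored 220 and the other scores were 50, 31, 39 and 50. Sox6 had 5 intronic regions scoring 35 to 68. A cluster of 5 on chromosome 10, nearest to Nedd1, scored 29 to 88 and lay more than 100 kb from that gene's starts.

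Longer stretches free of any mutant-line peak were also seen. In 422 such stretches 2 or more wild-type-only regions stood in a row, and these held 992 regions (24.7%). The longest row had 10 (chr10:91859094-92595939), with scores from 29 to 88 and a median of 47.5, over 736.8 kb without a protein-coding gene. Counted to the flanking mutant-line peaks, 990.0 kb held no mutant-line peak. A row of 7 lay over Auts2 and Galnt17 on chromosome 5 with a median score of 32. Rows of 6 lay around Sall1 and within Adamts12, and also on chromosomes 3, 13 and 17. The row on chromosome 17 had the highest scores of these, from 53 to 151.

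Most of the regions nevertheless had mutant-line peaks within reach. The median gap to the nearest peak of any mutant-line list was 13558 bp. A mutant-line peak lay within 1 kb of 125 regions (3.11%), within 5 kb of 851 (21.2%, 19.9 to 22.5) and within 50 kb of 81.5%. Short gaps were seen at Zfp605, with 1208 bp, and at Hoxa2, a homeobox gene of the hindbrain, with 557 bp.

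Chromosome Y and unplaced scaffolds had 2 regions each and are left out of the ranges that follow. Among chromosomes 1 to 19 and X, the wild-type-only share of Q7SST peaks ran from 7.31% (6.36 to 8.39) on chromosome 11 to 13.4% (11.8 to 15.3) on chromosome 12, around 10.5% overall. The mutant-line-only share of merged regions with a Q111SST peak was 8.79% on chromosome 11 and 6.85% on chromosome 12, around 9.21% overall. Its denominator is regions, whereas that of the wild-type-only share is peaks. Chromosome 12 was therefore highest for wild-type-only regions and among the lowest for mutant-line-only regions. Shares on chromosomes 17, 9 and 7 were 6.51%, 6.70% and 6.75% for mutant-line-only regions, and 10.48%, 10.49% and 9.84% for wild-type-only regions. Per megabase, chromosome 11 was not low, with 1.52 regions against a median of 1.58 over chromosomes. Chromosome X had the fewest, 0.690 per megabase, and chromosome 19 the most, 2.23.

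**Figure D4:**
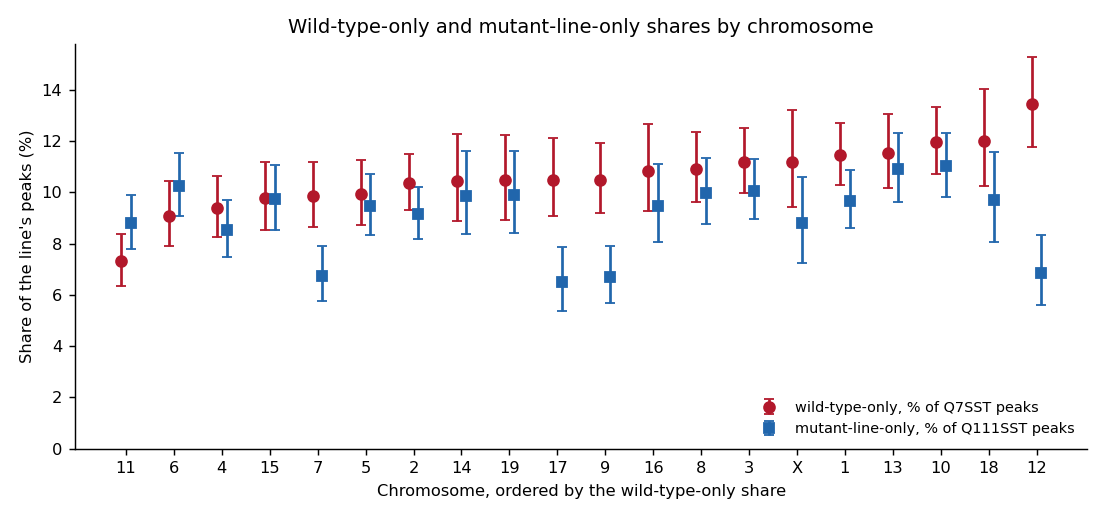
Wild-type-only regions as a share of Q7SST peaks (red circles) and mutant-line-only regions as a share of merged regions with a Q111SST peak (blue squares, called peaks in the legend). Shares are in % on the y axis. Chromosomes 1 to 19 and X are on the x axis, ordered by the wild-type-only share. Bars are 95% Wilson intervals. Chromosome 11 is lowest for the wild-type-only share at 7.31% and chromosome 12 highest at 13.4%, where the mutant-line-only share is 6.85%.

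The sequence of the regions was read from GRCm38. Their median G and C content was 44.4%, against 49.0% in shared regions, and away from starts the medians were 43.3% and 44.0%. Soft-masked repeats took a median of 11.4% in both sets, but 11.8% (11.4 to 12.2) against 13.3% (13.04 to 13.50) away from starts, and 9.71% against 10.3% near starts. Near starts, regions rich in CpG were those with an observed to expected CpG ratio of at least 0.6. Of wild-type-only regions near a start, 29.5% were CpG-rich, against 53.0% of shared ones. In the band from 29 to 39 the shares were 32.8% and 32.9%, a difference of -0.15 points (-6.33 to 6.33). At scores of 100 or more they were 17.3% and 58.7%, a difference of -41.4 points (-49.4 to -29.0). Strong wild-type-only promoters were thus mostly CpG-poor, unlike strong shared ones.

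The share of regions with the AP-1 motif depended on the score and on the distance from starts. AP-1 factors are dimers of Fos and Jun proteins that bind enhancers. TGANTCA, which reads the same on both strands, was in the central 300 bases of 21.7% of all wild-type-only regions and 18.7% of all shared regions, a difference of 3.03 points (1.69 to 4.42). At matched scores this sign did not hold in the lower bands. The difference was -7.78 points (-10.2 to -5.33) at 29 to 39 and -5.10 points (-7.56 to -2.53) at 40 to 59, and it was 0.36 and 3.78 points in the higher bands, with intervals that include 0. Near starts the pooled shares were 10.7% and 6.77%, but the shared regions there mostly had high scores. By band the near-start differences were -2.90, -0.60, 4.44 and 2.69 points from lowest to highest, and the interval excluded 0 only at 60 to 99 (0.27 to 10.3). In mutant-line-only regions near starts the share was 21.9%, from which the wild-type-only share differed by -11.1 points (-15.4 to -7.00). Away from starts, a split chosen after seeing the data, the wild-type-only share was lower. The motif was in the central 300 bases of 24.3% of the wild-type-only regions over 1 kb from a start. It was in 32.8% of such shared regions, a difference of -8.46 points (-10.1 to -6.73). The difference was -9.57, -9.28, -11.7 and -9.50 points in the 4 score bands from lowest to highest, and each interval lay below 0. By the number of mutant-line lists that held a region, the share was 24.3% with 0 lists, 32.1% with 1, 26.4% with 2, 28.7% with 3, 31.5% with 4 and 34.4% with 5. Over all bands it was thus lowest in the wild-type-only regions and highest with all lists, without an even rise between them. At scores of 100 or more it was 13.7% with 0 lists but 5.00% with 2 and 8.89% with 3, in sets of 40 and 45 regions. In mutant-line-only regions away from starts it was 35.9%, and the wild-type-only share differed from it by -11.5 points (-13.8 to -9.30). The mutant-line-only regions had to be in 5 lists, and the part of this in the difference was not tested.

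**Figure D5:**
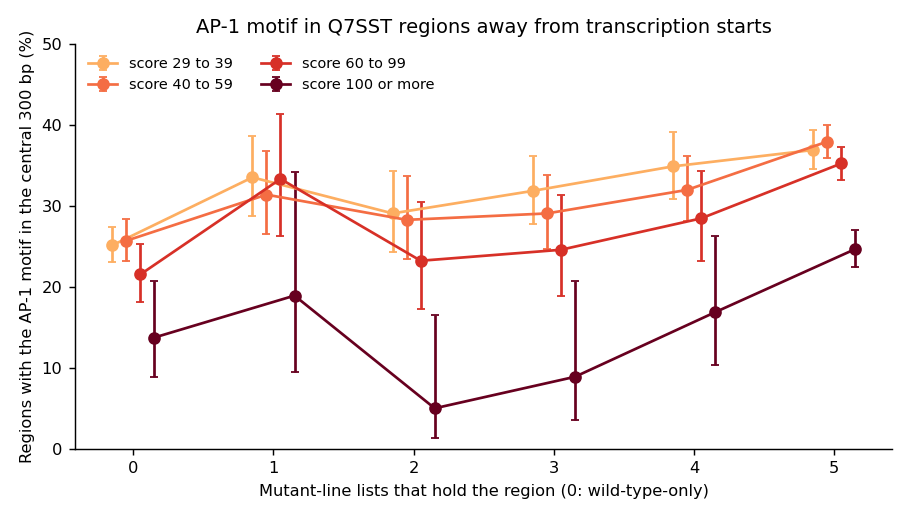
Share (%, y axis) of Q7SST regions over 1 kb from a transcription start with the AP-1 motif in their central 300 bp, by the number of mutant-line lists that hold the region (x axis, where 0 is wild-type-only), in 4 bands of Q7SST score. Bars are 95% Wilson intervals. Over all bands the share is 24.3% with 0 lists and 34.4% with 5.

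Other motifs were searched in the same way on both strands. Away from starts, the GC box GGGCGG was in 6.92% of wild-type-only and 9.51% of shared regions, and the CCAAT box CCAAT in 36.4% and 33.6%. The ETS motif CCGGAA was in 4.24% and 4.34%, a difference of -0.09 points (-0.84 to 0.74). The E-box CAGCTG was in 16.6% and 17.7%, the E-box CACGTG in 2.83% and 3.74%, and the TATA box TATAAA in 21.03% and 20.37%. A match describes the letters only and does not show that a factor was bound.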

How the data were processed

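H3K4me3 ChIP-Seq was performed on 1 wild-type and 5 mutant-line conditions. After formaldehyde fixation, chromatin was cut with micrococcal nuclease and immunoprecipitated, and libraries were read from a single end. The submitters' processing notes name Trimmomatic 0.36, Bowtie2, SAMtools 1.3, MACS2 and the mm10 build, without roles or settings. Each deposited line gives a position and a whole-number score made by the authors. Its scale, its thresholds and any input control are not given in the sources used here, so scores were used to band or rank peaks within a list. Scores or percentiles of a gene in Q7SST and Q111SST are set side by side only as descriptions. The depth is unknown.

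Peaks that overlapped or touched were merged. The score minimum of 29 was applied to Q7SST alone. Of 21 chromosomes, 0 had a peak beyond the end in GRCm38. Transcription starts, genes and exons were those of GENCODE mouse M21, and sequence and soft-masking came from the RefSeq copy of GRCm38. A region within 1 kb of any transcript start was near a start. The others were placed in exons, in introns or between genes. Clusters joined regions within 50 kb. Motifs were read in the central 300 bases, and for regions on scaffolds no sequence was read.

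Shares carry 95% Wilson intervals, differences Newcombe intervals and medians order-statistic intervals. They cover counting error only, and neighbouring regions are not independent. With 1 list per condition no test between conditions was made. Tables were handled with pandas 2.3.3 and numpy 2.4.6 in Python 3.11.15. Intervals came from scipy 1.17.1 and sequences were read with pysam 0.24.0. Merging, distances, overlaps and clusters were tested on simulated lists.

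The regions, the 13 gene lists and the 8 marker lists were chosen with earlier results of these data known. The genes named were those at the 12 highest-scoring regions near a start, those over or nearest to the 8 highest-scoring others, those of the 6 clusters with most regions, the 5 with most regions inside, and list or marker genes with a region at a start. The Six3 cluster, the row at Auts2 and Galnt17, and Hoxa2 and Zfp605 as examples of short gaps, were chosen after their values were seen. Alternatives covered the score minimum, the merging distance, the lists in the rule, windows, gene types, cluster distances and denominators. The AP-1 motif away from starts and a narrower AP-1 motif were added after seeing the data.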

Additional observations from a re-analysis of the deposited data

How the results depend on the processing

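No paired analysis was possible because there was 1 list for a condition, and for the same reason no replicate could be left out. The number of wild-type-only regions was 7816 with no score minimum, 1526 with the minimum at the pooled median of 47 and 843 at 60. Merging within 1 or 5 kb, leaving out each mutant-line list in turn, requiring only that Q111SST had no peak, or keeping chromosomes 1 to 19 and X left it between 3107 and 5424. The share near a start was 11.7% with a window of 0, 34.7% with 5 kb, 14.5% with protein-coding starts and 23.2% at the pooled median, and 18.8% or 19.3% with merging within 1 kb or clusters counted once. The share inside genes was 37.3% with protein-coding genes and 37.7% at the pooled median, and that between genes was 43.7% with protein-coding genes. The median width was 525 bp with no minimum, 718 bp at the pooled median and 772 bp at 60. The share with another within a set distance was 6.37% at 10 kb and 42.6% at 100 kb, and 11.7% at 50 kb among regions at the pooled median, where fewer regions remain. The share with a mutant-line peak nearby was 3.11% at 1 kb and 81.5% at 50 kb.

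Chromosome 11 was at 0.70 of the genome's wild-type-only share of Q7SST peaks and at 1.03 of its regions per megabase, so its low value turned with the denominator. For chromosome 12 the ratios were 1.28 and 1.09, and for chromosome X 1.07 and 0.468. Median G and C content was 45.3% in the central 300 bases and 45.0% at the pooled median, and the repeat median 8.67% in the central bases. The AP-1 motif was in 21.7% of all wild-type-only regions, against 18.7% of shared regions, the opposite sign to the difference away from starts and to those at scores of 29 to 59. In wild-type-only regions it was in 33.3% over whole regions, in 19.1% at the pooled median, in 24.3% away from starts and in 15.6% with TGACTCA or its complement only. Its difference from shared regions away from starts was -18.2 points over whole regions, where shared regions are longer, and -8.80 points with the narrower letters. Where a value moved because the window, the distance or the set of regions is itself larger or smaller, the move follows from the setting. For the other moves the cause was not tested.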
